A study of Schizosaccharomyces pombe with 18 samples.

Results

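The genes tlh1 (SPAC212.11) and tlh2 (SPBCPT2R1.08c) encode telomere-linked helicases of the RecQ type in the fission yeast Schizosaccharomyces pombe. They were taken from the deposited expression table by their systematic IDs, without any filter on level, and make up 2 of its 7018 rows. RNA of 18 cultures was sequenced after removal of ribosomal RNA, with 3 biological replicates of each of 6 genotypes. The cultures were grown at 25 °C in YES, a rich medium. Wild type was compared with strains that lack 1 gene each of the SHREC complex or its partner: clr1D (clr1D::KanMX4), clr2D (clr2D::his7+), clr3D (clr3D::kanMX6), mit1D (mit1D::Natmx6) and chp2D (chp2D::KanR). All 6 strains are listed as h- with leu1-32 and ura4-D18. Wild type, mit1D and chp2D are listed with arg3-D4 and his3-D1, and the 3 clr strains with arg3D and his3D. The ade6 allele is ade6-216 in clr2D, is written ade6-210/216? for clr1D, and is ade6-210 in the other strains. Each genotype is 1 strain, so the replicates are cultures of that strain. The libraries of mit1D and chp2D carry another series of library names than those of wild type and the clr strains, so in comparisons between these 2 sets the effect of a deletion and that of the library series cannot be told apart.

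Genes close to the chromosome ends of fission yeast are packed into heterochromatin, which is marked by methylation of histone H3 and bound by HP1 proteins such as Chp2. SHREC contains the histone deacetylase Clr3, the Snf2-type remodeller Mit1 and the subunits Clr1 and Clr2, and is known for limiting transcription within heterochromatin. The tlh genes hold a stretch related to the dg and dh repeats that flank the centromeres, and are known as genes silenced by heterochromatin at the chromosome ends.

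The copies are almost the same sequence, which bears on every value below. In the RefSeq sequence of assembly ASM294v3, tlh1 lies on the minus strand at chrI:1-5662, where its interval stops at the end of the chromosome sequence, so that its 3′ part is missing. The gene tlh2 lies on the plus strand at chrII:4526885-4532899, with its last base 6905 bases from the end of the chromosome sequence. The deposited table, which was made on ASM294v2, gives both genes the same intervals. Counted from 1 at the first base of the start codon, the copies were aligned over 5662 bases and differed at 1 of them (C303T, tlh1 base first), an identity of 99.98%. The windows from base 253 to base 353 are shown because they hold this base, printed in capitals, at chrI:5310-5410 (minus strand) and chrII:4527137-4527237 (plus strand):
tlh1: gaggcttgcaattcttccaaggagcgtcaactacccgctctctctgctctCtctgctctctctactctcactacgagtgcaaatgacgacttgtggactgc
tlh2: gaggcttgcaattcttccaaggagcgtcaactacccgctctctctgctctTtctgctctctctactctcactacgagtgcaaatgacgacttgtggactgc
The other sequence that separates the rows is the 3′ end of tlh2, 353 bases with no counterpart in the tlh1 row. Its first 98 bases end the coding sequence, which spans 5760 bases with the stop codon. That stretch, bases 5663 to 5760 at chrII:4532547-4532644 (plus strand), is shown with the stop codon in capitals:
tlh2 end: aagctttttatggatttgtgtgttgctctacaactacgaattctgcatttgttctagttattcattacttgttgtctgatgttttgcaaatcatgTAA

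Few places in either gene could therefore give a read that matches only 1 place in the genome. Of the 5613 stretches of 50 bases inside tlh1, 50 (0.891%) occurred once in the genome sequence, and of the 5966 inside tlh2, 403 (6.75%) did. With stretches of 100 bases the numbers were 100 of 5563 (1.80%) for tlh1 and 453 of 5916 (7.66%) for tlh2. Those of tlh1 are the stretches that cover base 303. Suppose both copies gave the same RNA along their rows and only single-match reads were counted. The tlh2 row would then hold 8.06 reads for each tlh1 read with 50-base reads, 5.71 with 75-base reads and 4.53 with 100-base reads. If shared reads were split evenly instead, it would hold 1.06 reads for each tlh1 read, and 1.14 to 1.26 even if all the RNA came from tlh2, for reads of 50 to 300 bases. These ratios take tlh1 RNA to end where its row ends. RNA from the missing 3′ part of tlh1, if it has the sequence of the tlh2 end, would fall in the tlh2 row. That would raise the ratios for equal output. Neither the read length nor the treatment of reads with several matches is given in the sources used here. Among rows of the same table with a RefSeq interval, 101 were overlapped by no 50-base stretch that occurred once in the genome. Of these, 55 had 0 reads in all 18 libraries, against 9 of 6710 rows overlapped by at least 1. The others of the 101 did have reads, up to 1384 summed over the libraries. The sum of tlh1 and tlh2 does not depend on how shared reads were divided between the rows, but it does depend on whether they were counted.

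The genome holds 15 further stretches of at least 200 bases that resemble tlh2, at 87.1% to 98.3% identity, 5 of them on chromosome I, 4 on II and 6 on III. One, 538 bases long at chrI:18008-18545 with 98.3% identity, overlaps the row SPAC212.06c. Another 2, at 87.1% and 87.4% identity, overlap SPNCRNA.361 and SPNCRNA.372, non-coding RNAs on chromosome II. Copies of tlh genes beyond the ends of the assembled chromosomes, if the strains hold any, were not analysed here.

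The depth recovered from the FPKM values (fragments per kilobase of transcript, relative to depth) ran from 26.2 to 101.8 M reads per library, and was lower in mit1D and chp2D than in most other libraries. All values of tlh1 and tlh2 came out within 0.0256 of a whole read. The deleted gene fell in its own strain in every case: clr1 to 18.6% of wild type, clr2 to 76.2%, clr3 to 13.8%, mit1 to 0.117% and chp2 to 31.1%. The library label of clr2D thus rests on a modest drop, while clr2 stood at 137% of wild type in clr1D and 149% in clr3D; the part of clr2 that was removed is not given in the sources used here. The ura4 row was at 0 in all 18 libraries. M-cell genes (mfm1, mfm2, mfm3, mam2) and P-cell genes (map2, map3) all had reads, with means over the libraries of 6.94 to 67.8 and of 22.1 and 34.2 scaled FPKM, so these rows did not separate the mating types. The mean of mfm2 was 98.5 in wild type and 88.4 in clr3D. It was lower in clr1D (46.1), clr2D (50.4), mit1D (62.1) and chp2D (61.2).

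In wild type the tlh1 row held few reads. There were 5, 2 and 8 reads in replicates 1 to 3, which is 0.0111, 0.00776 and 0.0139 scaled FPKM (FPKM divided by a per-library factor between 0.971 and 1.07). These levels rest on 15 reads in all, so the wild-type level of tlh1 is imprecise. They also divide the reads by the full length of the row. If only single-match reads were counted, they understate tlh1, since 50 of its 5613 stretches of 50 bases occur once in the genome. In clr1D the row held 262, 114 and 173 reads, or 0.582, 0.565 and 0.566 scaled FPKM. In clr2D it held 186, 145 and 265 reads, or 0.574, 0.611 and 0.559. In clr3D it held 175, 287 and 156 reads, or 0.628, 0.815 and 0.726. The 9 libraries of the clr deletions thus lay close together, and clr3D was above the other clr strains in each library. In mit1D tlh1 held 57, 96 and 124 reads, or 0.350, 0.580 and 0.478 scaled FPKM, with the largest SD of any group (0.115), though relative to the mean wild type varied more. In chp2D it held 62, 52 and 43 reads, or 0.343, 0.360 and 0.286. No library of any deletion overlapped wild type.

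The tlh2 row was higher than tlh1 in every library. In wild type it held 70, 51 and 110 reads, or 0.147, 0.186 and 0.179 scaled FPKM. In clr1D the levels were 4.79, 5.28 and 4.91 from 2294, 1131 and 1593 reads, and in clr2D 5.72, 5.76 and 5.92 from 1971, 1453 and 2981 reads. In clr3D they were 9.53, 12.6 and 10.4 from 2821, 4719 and 2374 reads, above those of every other library. In mit1D they were 1.97, 2.26 and 2.32 from 341, 398 and 641 reads. In chp2D they were 2.88, 2.68 and 2.76 from 553, 410 and 442 reads. For tlh2 the libraries of no 2 genotypes overlapped. For how many of all genes the libraries of 2 genotypes do not overlap was not counted. In RNA of whole cultures, more cells with tlh RNA and more tlh RNA per cell cannot be told apart.

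**Figure D1:**
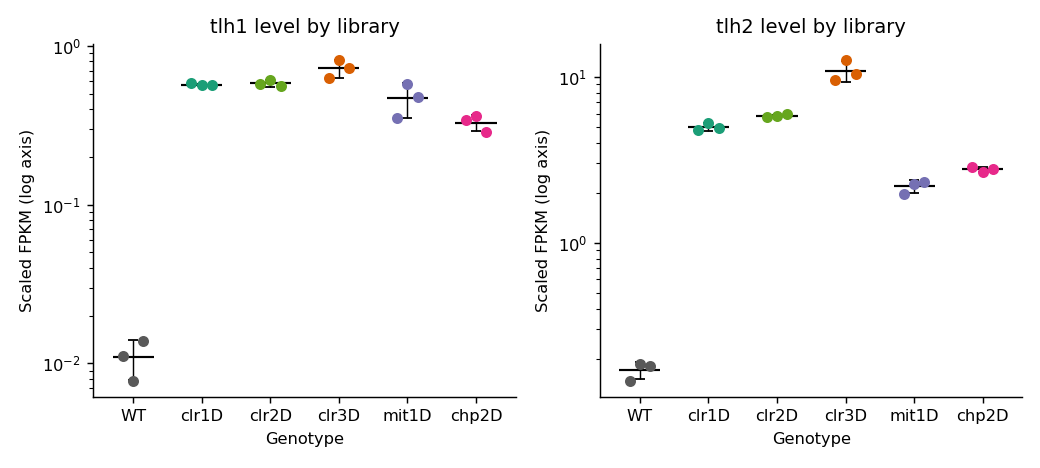
Level of tlh1 (left) and tlh2 (right) in each of the 18 libraries, as scaled FPKM on a log axis, by genotype; points are libraries, horizontal lines group means and error bars the SD (n = 3). All deletion libraries lie above wild type, tlh2 is highest in clr3D (mean 10.9) and lowest among the deletions in mit1D (mean 2.19).

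The rows of both genes rose in all 5 deletions. Reads that match both copies, if counted, could have entered either row, so whether each copy rose was not tested. The mean tlh1 level went from 0.0109 ± 0.00305 (SD, n = 3) in wild type to 0.571 ± 0.00918 in clr1D, 0.581 ± 0.0266 in clr2D, 0.723 ± 0.0938 in clr3D, 0.469 ± 0.115 in mit1D and 0.330 ± 0.0391 in chp2D. As ratios of means these are 52.3-fold, 53.2-fold, 66.2-fold, 43.0-fold and 30.2-fold. The few wild-type reads make the ratios imprecise: the pooled reads of clr1D, relative to depth, were 50.8 times those of wild type with an exact 95% interval of 30.5 to 91.3, and those of chp2D 27.4 times with an interval of 16.1 to 50.2. These intervals cover counting error alone. For tlh2 the mean rose from 0.171 ± 0.0209 to 4.99 ± 0.254 in clr1D, 5.80 ± 0.107 in clr2D, 10.9 ± 1.59 in clr3D, 2.19 ± 0.187 in mit1D and 2.77 ± 0.101 in chp2D. The corresponding folds were 29.3, 34.0, 63.6, 12.8 and 16.2. The intervals of the pooled read ratios for tlh2 were narrower, from 11.1 to 14.7 in mit1D and from 56.8 to 74.1 in clr3D.

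The test was limma on log2(scaled FPKM + 1), fitted over 6950 genes, with Benjamini-Hochberg adjustment within each comparison. Against wild type, tlh2 rose by 2.36 ± 0.07 (SE) on this log2 scale in clr1D (adjusted p = 5.83e-12), by 2.54 in clr2D (5.68e-12), by 3.33 in clr3D (2.07e-13), by 1.44 in mit1D (3.5e-09) and by 1.69 in chp2D (7.02e-10). The added 1 exceeds the wild-type level of both genes and shrinks both sets of changes: with a pseudocount of 0.1, tlh2 changed by 4.24 in clr1D and 3.08 in mit1D. For tlh1, whose level stays below 1 in every library, the log2 fold changes were 0.64 ± 0.06 in clr1D (limma adjusted p = 6.55e-06), 0.65 in clr2D (7.28e-06), 0.77 in clr3D (9.11e-07), 0.54 in mit1D (3.83e-05) and 0.39 in chp2D (0.00062). The smaller log2 values of tlh1 are thus no sign of a smaller fold. Both members passed the test as higher in each deletion, against a background over all genes fitted of 9.08% called higher in clr1D, 7.25% in clr2D, 14.2% in clr3D, 14.2% in mit1D and 11.3% in chp2D. In either direction the called shares were 17.0% in clr1D, 12.2% in clr2D, 27.8% in clr3D, 26.2% in mit1D and 21.6% in chp2D, and the shares called lower 7.88%, 4.94%, 13.6%, 12.1% and 10.2%. With replicate number as a block in the fit of all 18 libraries, the genes called went from 1179 to 1472 in clr1D and from 847 to 1123 in clr2D. A fit with the block that also left out mit1D and chp2D called 1794 and 1417. Both members passed in each of these fits. All 5 comparisons share the wild-type libraries.

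**Figure D2:**
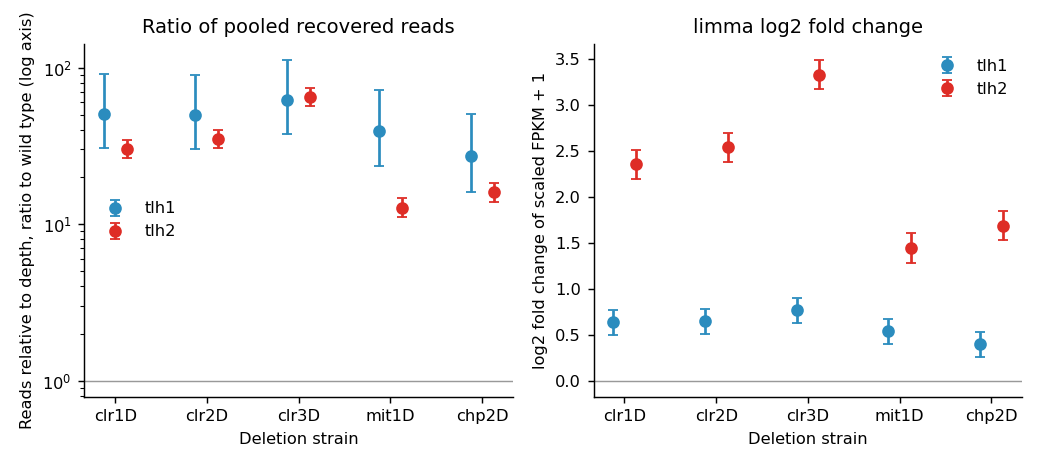
Change of tlh1 (blue) and tlh2 (red) in each deletion against wild type: left, ratio of pooled reads relative to depth on a log axis with exact 95% counting intervals; right, limma log2 fold change of scaled FPKM + 1 with 95% confidence intervals. The ratios run from 12.8 for tlh2 in mit1D to 64.7 for tlh2 in clr3D, and the wide intervals of tlh1 come from 15 wild-type reads.

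The tlh2 row did not stand at the same level in the 5 deletions. From high to low the order was clr3D, clr2D, clr1D, chp2D, mit1D and wild type. All 10 pairs of deletions were compared, and tlh2 passed the test in 8 of them. The pairs that did not pass were its neighbours clr2D and clr1D, and chp2D and mit1D. Within a library series, only clr3D against clr1D and clr3D against clr2D passed. The other passing pairs cross the series, so deletion and series cannot be told apart in them. Of all genes fitted, 34.0% were called between clr3D and clr1D, 40.5% between mit1D and clr1D and 38.9% between mit1D and clr2D. Its level in clr3D was above that in clr2D by 0.79 ± 0.07 on the log2(scaled FPKM + 1) scale (limma adjusted p = 9.1e-06), in a comparison where 30.8% of all genes were called. The level in clr1D was above that in chp2D by 0.67 ± 0.07 (adjusted p = 9.42e-06; 40.1% of all genes called), and chp2D and clr1D belong to different library series. The neighbours clr2D and clr1D did not pass (0.18 ± 0.07, unadjusted p = 0.0268, adjusted p = 1; 0.446% of all genes called), nor did chp2D and mit1D (0.24 ± 0.07, unadjusted p = 0.00521, adjusted p = 0.647; 0.173% of all genes called). In both of these pairs the libraries did not overlap, and how many of all genes separate in this way was not counted. Few genes were called in either pair, 31 and 12 of 6950.

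For tlh1 the order was clr3D, clr2D, clr1D, mit1D, chp2D and wild type. The neighbours clr2D and clr1D, clr1D and mit1D, and mit1D and chp2D had overlapping libraries, and no neighbouring pair of deletions passed the test. With limma's voom on the recovered reads clr3D was above clr2D (adjusted p = 0.0328). Among all 10 pairs tlh1 passed in 4. It was lower in chp2D than in clr1D by 0.24 ± 0.06 on the log2 scale (limma adjusted p = 0.00829), than in clr2D by 0.25 (0.00709; 37.8% of all genes called) and than in clr3D by 0.37 (0.000362; 43.0% called). It was also lower in mit1D than in clr3D by 0.23 (0.00948; 43.9% called), but without the first mit1D replicate this difference was 0.17 and did not pass (adjusted p = 0.0508). The first 2 of these and the difference of mit1D from clr3D did not pass in fits of only the 2 groups (adjusted p = 0.0684, 0.0589 and 0.0949) or after quantile normalization (0.451, 0.482 and 0.196). All 4 pairs cross the library series. The strains mit1D and chp2D share a series, and there the mean of tlh1 was higher in mit1D and that of tlh2 in chp2D, but neither difference passed.

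The reads did not divide between the rows in the same way in every genotype. The tlh1 row took 5.74% ± 1.70 (SD, n = 3) of the reads of both rows in wild type, 9.73% ± 0.549 in clr1D, 8.62% ± 0.455 in clr2D, 5.91% ± 0.225 in clr3D, 16.7% ± 2.58 in mit1D and 10.1% ± 1.19 in chp2D. Library by library, the share in mit1D was 14.3%, 19.4% and 16.2%, above all other libraries, of which the highest was 11.3% in chp2D. In clr3D it was 5.84%, 5.73% and 6.17%, below all libraries of the other deletions. Wild type had 6.67%, 3.77% and 6.78%, from 2 to 8 tlh1 reads. The exact 95% binomial interval of its second replicate ran from 0.460% to 13.0%, which includes the values of clr1D, clr2D, clr3D and chp2D. That of its first replicate ran from 2.20% to 14.9%, which also includes the lowest mit1D library, at 14.3%. These shares are a description and were not tested.

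As a ratio, the tlh2 row held between 4.15 and 25.5 reads for each tlh1 read. Pooled over replicates the ratio was 15.4 in wild type, 9.14 in clr1D, 10.7 in clr2D, 16.0 in clr3D, 4.98 in mit1D and 8.95 in chp2D. The 1.06 to 1.26 computed for an even split assume reads spread evenly along both genes, and how reads lay along the genes was not measured here. All libraries had higher ratios than these. Divided by the number of 50-base stretches that occur once, tlh2 reads exceeded tlh1 reads 1.91 times in wild type, 1.13 times in clr1D, 1.33 times in clr2D, 1.99 times in clr3D and 1.11 times in chp2D, and in mit1D the ratio was 0.618. With 100-base stretches the same ratios were 3.40, 2.02, 2.37, 3.54, 1.98 and, for mit1D, 1.10. All of these ratios assign the reads of the tlh2 3′ end to tlh2. RNA from the missing 3′ part of tlh1, if of the same sequence, would be counted there too and raise them. The level of tlh2 relative to tlh1 thus depends on the read length and on the counting, and the higher FPKM of tlh2 does not by itself show more RNA from that copy. The comparison of 1 row between genotypes uses the same positions in each library. If shared reads were split between the rows, such a comparison can still reflect RNA of the other copy. Read lengths of the libraries are not known, and whether they differed between the library series was not tested.

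**Figure D3:**
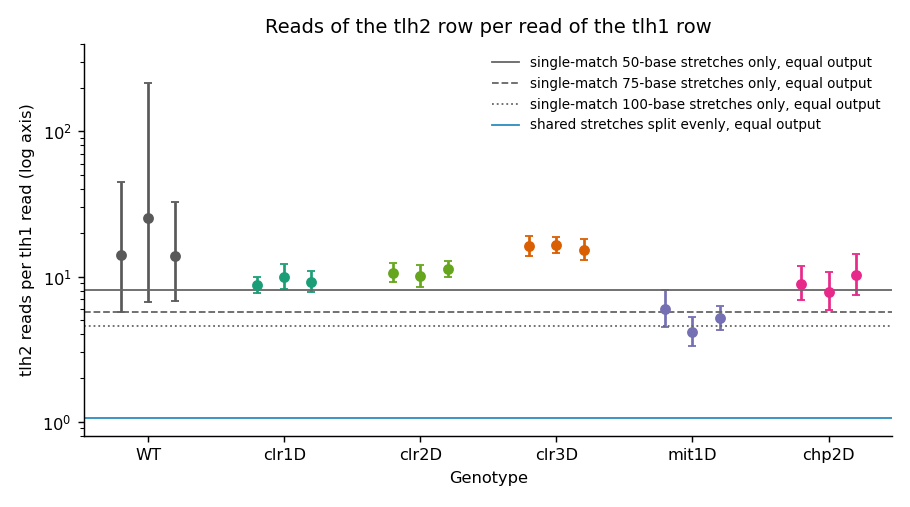
Reads in the tlh2 row per read in the tlh1 row, on a log axis, for each library by genotype, with exact 95% binomial intervals (counting error only). Grey lines mark the ratio that equal output of both copies would give if only single-match stretches of 50 (8.06), 75 (5.71) or 100 bases (4.53) were counted. The blue line marks that of an even split (1.06). All lines take tlh1 RNA to end where its row ends. The mit1D libraries lie lowest, between 4.15 and 5.98.

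Over the 18 libraries, tlh1 and tlh2 correlated at Pearson r = 0.945 on the log2(scaled FPKM + 1) scale, a description of values that share sequence, libraries and group differences. Among rows that reached an FPKM of 1 in 3 or more libraries, the row most like both was SPAC212.06c (chrI:18042-18974), the one that overlaps a stretch with 98.3% identity to tlh2. Its r was 0.969 with tlh1 and 0.976 with tlh2. It went from 0.343 ± 0.166 (SD, n = 3) in wild type to 4.16 ± 0.336 in clr1D, 4.88 ± 0.343 in clr2D, 7.78 ± 1.38 in clr3D, 3.13 ± 0.146 in mit1D and 2.65 ± 0.267 in chp2D, so clr3D was again highest. The next rows for tlh1 were SPNCRNA.373 (r = 0.962), SPNCRNA.359 (0.954), SPBCPT2R1.10 (0.953), which adjoins tlh2, and SPNCRNA.234 (0.949). For tlh2 they were SPNCRNA.359 (0.969), meu22 (0.940), SPNCRNA.373 (0.924) and SPNCRNA.232 (0.918). The 4 non-coding RNAs lie in the centromere regions of chromosomes I and II. The highest of them in clr3D, SPNCRNA.373 (chrII:1640114-1641543), went from 0.445 ± 0.171 to 3.88 ± 0.0987 scaled FPKM in that strain. The gene meu22 differs from the rest: it was well expressed in wild type, at 20.9 ± 0.303 scaled FPKM, and its mean in the deletions ran from 22.4 to 24.2. The correlation that chose these 7 rows is set mainly by the difference between wild type and the deletions. Their levels are therefore given here as a description, without a test. Calls of SPAC212.06c and SPBCPT2R1.10 are given below, where their position near a chromosome end selected them.

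Of the 3 rows closest to each gene, the nearest 2 were called higher in all 5 deletions and the third was not. The nearest to tlh1 is SPAC212.10 (chrI:5726-6331), 63 bases away. It rose from 0.0477 ± 0.0423 (SD, n = 3) scaled FPKM to 4.11 ± 0.284 in clr1D, 4.09 ± 0.254 in clr2D, 3.98 ± 0.759 in clr3D, 4.29 ± 0.252 in mit1D and 2.96 ± 0.453 in chp2D. The next, SPAC212.09c (chrI:7619-9274), had 0.0147 ± 0.0205 in wild type and was highest in mit1D, at 1.86 ± 0.209, and chp2D, at 1.51 ± 0.269, against 0.690 to 0.890 in the clr deletions. The third, SPNCRNA.70 at 5364 bases, was called in no deletion and stayed between 0.0158 and 0.127 scaled FPKM. Beside tlh2, SPBCPT2R1.10 (chrII:4526225-4526884) ends at the base before it and rose from 0.0366 ± 0.0383 to between 1.18 ± 0.283 in chp2D and 2.02 ± 0.0578 in clr3D. SPBCPT2R1.07c (chrII:4523274-4524970), 1914 bases away, rose from 0.0597 ± 0.0210 to 4.42 ± 0.294 in clr1D and 4.27 ± 0.127 in clr3D, but to 2.06 ± 0.213 in clr2D, 1.34 ± 0.139 in mit1D and 1.07 ± 0.207 in chp2D. The third, SPBCPT2R1.06c at 6493 bases, was called in mit1D alone (0.563 ± 0.459 against 0.124 ± 0.0181; limma adjusted p = 0.0433). The IDs of these neighbours have no gene name in the sources used here. Among them, only SPNCRNA.70 was searched for stretches that occur once in the genome. How far the other neighbours share sequence with other places is therefore not known here.

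Within 50 kb of the chromosome ends, every call against wild type was an increase. At the left end of chromosome I, 23 rows other than tlh1 were tested, of which 5 were called higher in clr1D, 5 in clr2D, 7 in clr3D, 8 in mit1D and 7 in chp2D, and none lower, beside 9.08%, 7.25%, 14.2%, 14.2% and 11.3% of all genes called higher. The called row farthest from the end was SPAC212.06c in clr1D and clr2D, and ftm1, at 29.8 kb, in clr3D and mit1D. Unlike tlh1, the rows SPAC212.12 and SPAC212.08c had higher means in mit1D and chp2D than in the clr deletions, a difference that crosses the library series. SPAC212.12 stood at 43.1 ± 6.35 and 44.6 ± 5.80 scaled FPKM in mit1D and chp2D, against 0.907 ± 0.275 in wild type and 8.33 ± 1.82 in clr3D. Inside SPAC212.12, 0 of 323 stretches of 50 bases occurred once in the genome, so its reads may have come from other places. The row SPAC212.08c stood at 16.6 ± 1.97 and 16.7 ± 1.73 scaled FPKM in mit1D and chp2D, against 0.705 ± 0.0890 in clr1D and 0.922 ± 0.0688 in clr3D. At the right end of chromosome II, 12 rows other than tlh2 were tested. Of these, 3 were called higher in clr1D, clr2D, clr3D and mit1D and 2 in chp2D, and none lower; SPBCPT2R1.04c reached 2.28 ± 0.334 scaled FPKM in clr3D, 1.89 times its wild-type mean. The median log2 fold changes over the left-end rows lay between 0.02 in clr2D and 0.18 in mit1D, and over the right-end rows between -0.06 in clr1D and 0.03 in clr2D, against medians over all genes between -0.01 and 0.00. In many of these rows most stretches of 50 bases occur more than once in the genome, and where the other matches lie was not examined. Whether reads of overlapping rows on the other strand were told apart is not known.

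**Figure D4:**
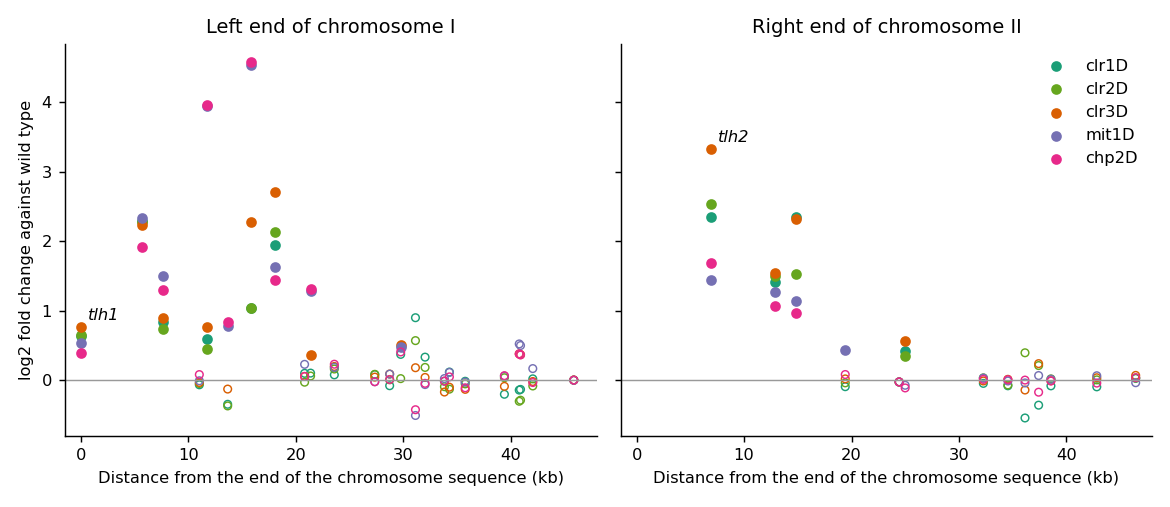
Limma log2 fold change of scaled FPKM + 1 against wild type for tlh1, tlh2 and the other rows within 50 kb of the left end of chromosome I and the right end of chromosome II, by distance from the end of the chromosome sequence in kb; colours are deletions and filled points passed an adjusted p of 0.05. Called rows reach 29.8 kb on chromosome I and 25.0 kb on chromosome II, and tlh2 has the highest value at its end in clr3D, 3.33.

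Genes for telomere proteins and telomerase did not move as the tlh genes did. Of 18 genes tested, 3 were called higher and 1 lower in clr1D, 1 and 1 in clr2D, 0 and 4 in clr3D, 3 and 1 in mit1D and 2 and 1 in chp2D. The telomerase RNA gene ter1 fell from 138 ± 9.40 (SD, n = 3) scaled FPKM to 109 ± 1.87 in clr1D, 112 ± 5.57 in clr2D and 121 ± 13.3 in clr3D. The checkpoint kinase gene tel1 rose from 12.7 ± 0.241 to 14.2 ± 0.350 in clr1D and 14.8 ± 0.926 in mit1D, and fell to 10.9 ± 0.0755 in clr3D. The gene of the telomere-binding protein Taz1 rose from 15.9 ± 0.393 to 19.4 ± 0.885 in mit1D and 18.9 ± 0.322 in chp2D. Counts of 0 to 4 of 18 stand beside backgrounds of 4.94% to 14.2% in 1 direction. The ratios to wild type of these 3 genes ran from 0.788 for ter1 in clr1D to 1.22 for taz1 in mit1D. The median log2 fold change of the list lay between -0.02 and 0.04.

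Among 21 genes for heterochromatin and RNAi factors, 2 were called higher and 2 lower in clr1D, 1 and 0 in clr2D, 2 and 4 in clr3D, 5 and 2 in mit1D and 2 and 1 in chp2D. For this list and the next, the shares over all genes were 7.25% to 14.2% called higher and 4.94% to 13.6% called lower. Those called most often were epe1, a JmjC-domain factor that counters heterochromatin, which fell from 16.7 ± 0.562 to 14.5 ± 0.788 in clr1D and 14.4 ± 0.717 in clr3D; rik1, a subunit of the Clr4 methyltransferase complex, which rose from 18.8 ± 0.190 to 21.5 ± 0.366 in clr1D and 21.7 ± 0.337 in clr2D; and sir2, a histone deacetylase gene, which rose from 22.2 ± 0.672 to 25.3 ± 1.09 in chp2D. The median log2 fold change of this list lay between -0.03 and 0.03. Of 7 other genes for RecQ and recombination helicases and their partners, none was called in clr1D or clr2D, 2 were lower in clr3D, and 1 was higher and 2 lower in mit1D and in chp2D, with medians between -0.04 and -0.01. The RecQ helicase gene rqh1 was not called in any deletion and stood at 20.5 ± 1.03 in wild type and 19.7 to 20.9 in the deletions. The helicase gene fbh1 fell from 19.3 ± 0.458 to 17.2 ± 0.218 in mit1D, pfh1 rose from 34.3 ± 0.586 to 38.1 ± 0.228 in chp2D, and the topoisomerase gene top3 fell from 19.0 ± 0.634 to 17.3 ± 0.613 in clr3D. Of the 5 genes of the SHREC list, the deleted one was called lower in its own strain, and clr2 was called higher in clr1D and clr3D.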

How the data were processed

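The authors deposited 1 FPKM value per gene and library, with transcript lengths and coordinates. Per the submitters' processing notes, reads were aligned with GSNAP to ASM294v2. The counting program, its strand setting and its treatment of reads with several matches are unknown: not given in the sources used here. The table holds 3 further sample columns that match no label, and these were not used. FPKM multiplied by length came in whole multiples of 1 read (100% of the low values checked within 0.1), which gave the recovered reads and the depths of 26.2 to 101.8 M reads.

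Scale factors, 1 per library, were median ratios of FPKM to the gene's geometric mean, taken over 6484 genes at FPKM 1 or more in all 18 libraries. Values were analysed as log2(scaled FPKM + 1) with limma 3.58.1 in R 4.3.3 (eBayes with trend), in 1 fit of 18 libraries with 1 coefficient per genotype, over 6950 genes with a value above 0 in at least 1 library. P-values are 2-sided, Benjamini-Hochberg adjusted within each comparison and called under 0.05. The script was tested on simulated data. The members, gene lists and tests were chosen with earlier results of these data known. The text names tlh1 and tlh2, the 5 rows most correlated with each, the 3 nearest to each, the deleted genes and at most 3 genes a list, those called in the most deletions; ftm1 and rqh1 lie beyond this rule and were chosen after their values were seen. The mating-type genes and ura4 are the marker lists, and SPNCRNA.361 and SPNCRNA.372 are named for their sequence alone.

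Repeated stretches were searched in both strands of the RefSeq sequence of ASM294v3 with Python 3.11.15, and similar stretches with BLAST+ 2.17.0. Read ratios have exact conditional 95% intervals and shares exact Clopper-Pearson intervals, for counting error only. Deviations of same-numbered libraries from their group means correlated in all 18 pairs among wild type and the clr deletions (r 0.25 to 0.71). In the 27 pairs with mit1D or chp2D, r lay between -0.13 and 0.12. The numbers thus pair the first 4 groups alone. In those groups, libraries of the same number also share the first part of their library name. The main fit did not use this pairing. Alternatives were another pseudocount (0.1), no scaling, quantile normalization, a filter, fits of 2 groups, a replicate block, leaving out each replicate and, added after seeing the data, limma's voom on the recovered reads and the block in 4 groups.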

Additional observations from a re-analysis of the deposited data

How the results depend on the processing

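Against wild type, tlh1 and tlh2 kept direction and call in all 131 results under the alternatives run; the filter on low FPKM left no value for tlh1. With voom on recovered reads their log2 fold changes were 4.74 to 5.87 for tlh1 and 3.70 to 6.00 for tlh2. Between deletions, 243 of 256 kept both; the exceptions were all of tlh1. After quantile normalization clr2D against clr1D was -0.0033, mit1D against clr1D 0.041 and mit1D against clr2D 0.044, the opposite sign, and chp2D against clr1D (-0.087), chp2D against clr2D (-0.084) and mit1D against clr3D (-0.15) no longer passed. Fits of only the 2 groups kept the same 3 changes (-0.24, -0.25, -0.23) without the call. Their SEs were 0.089, 0.086 and 0.096, against 0.065 in the fit of all 18 libraries. With voom, clr3D against clr1D (0.34) and clr3D against clr2D (0.33) passed. Leaving out 1 replicate gave -0.0041 to 0.019 for clr2D against clr1D and -0.29 to -0.17 for mit1D against clr3D. The causes of these changes were not tested.

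The replicate block changed no call of either gene; it gave 1472 genes called in clr1D and 1123 in clr2D, and with mit1D and chp2D also left out of the fit 1794 and 1417. Fits of 2 groups called 549, 327 and 1046 genes in clr1D, clr2D and clr3D against wild type, 1433 in clr3D against clr1D and 1228 in clr3D against clr2D, and voom called 5 in chp2D against mit1D. The 15 wild-type reads limit every tlh1 fold. A test on counts by edgeR was not run.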
